A study of Homo sapiens with 10 samples.

Results

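The BCL2 family and survival genes described here are BCL2, BCL2L1, MCL1, BCL2L2, BAX, BAK1, BCL2L11, BNIP3, XIAP and BIRC5. They were named for their roles in cell death, and all peaks whose summit lay in their GENCODE 44 gene bodies or up to 600 bp past their 3′ ends were taken, which gave 117 of the 178837 peaks in the list. The cells were IMR-32, an established human line from a neuroblastoma, and their polyadenylated RNA was measured by 3′-end sequencing. Libraries of this kind are primed with oligo(dT) and read inward from the transcript end, which puts the start of a read at or near the cleavage site. Cells were transduced with pLKO.1 lentiviral shRNAs and selected with puromycin. CDK12, a kinase that supports transcript elongation, was targeted by shRNAs labelled sh22 and sh98 (4 libraries), its paralog CDK13 by sh701 and sh704 (4 libraries), and GFP, a protein these cells do not make, as control (2 libraries). Each shRNA had 2 libraries from biological duplicates, all groups shared the same vector and selection, and the study asked which kinase accounts for early cleavage and polyadenylation. The deposited peaks were called once on the merged reads of all 10 libraries, after the libraries, which had been processed in batches, were brought to the smallest size. The list therefore has no value per library, per shRNA or per batch. Neither a change after depletion of CDK12 or CDK13 nor a replicate error can be given for any of these genes. The knockdown of CDK12 and CDK13 cannot be checked in it either. The values show where oligo(dT)-primed reads piled up in the pooled cells, and not every such position need be a cleavage site.

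BCL2 family proteins set the threshold of mitochondrial apoptosis. The anti-apoptotic members (BCL2, BCL-XL from BCL2L1, MCL1 and BCL-W from BCL2L2) bind and restrain the pore-forming effectors BAX and BAK1, BH3-only proteins such as BIM from BCL2L11 release them, and once cytochrome c has left the mitochondria XIAP can still block caspases. Neuroblastoma cells are known for their reliance on BCL2 and MCL1. The 3′ ends matter because 3′ UTRs of these genes carry microRNA and RNA-binding protein sites, and because cleavage inside an intron yields a transcript without the downstream exons. Cleavage is directed by a poly(A) signal, AATAAA or a close variant, a short way upstream of the cut. Oligo(dT) can also prime inside a transcript where the RNA itself is rich in A, and a peak of that origin has A-rich genomic sequence just after it.

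Peaks were placed with respect to the annotation by their summit: terminal from 200 bp upstream to 600 bp downstream of any annotated transcript end of the gene, otherwise exonic or intronic. The edge of the peak on the 3′ side of the gene's strand was taken as the approximate cleavage position, and the main end of a gene is that of its Ensembl canonical transcript. The level of a peak is its pileup, the number of distinct reads over the summit, which was recovered from the deposited fold enrichment and p-value. It counts 1 read per position and strand, cannot pass 200 and levels off before that, and in 3′-seq it does not scale with transcript length. All 117 peaks are accounted for in the classes given here, and none was removed for a low value.

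All 10 genes had at least 1 terminal peak, against 68.7% of 20033 protein-coding genes. For BIRC5 this rests on the ends of shorter transcripts: with the main transcript only, or with a window of 100 bp on each side of an end, it had no terminal peak. In 9 of the 10, the 3′ edge of a peak fell within 25 bp of the main end (90%, 95% Wilson interval 59.6% to 98.2%), compared with 68.4% of the 13761 protein-coding genes with a terminal peak. Wilson intervals here and in the following cover counting error only. The edges at these 9 main ends lay 0 to 11 bp past the annotated end, with a median of 3 bp, and each had an AATAAA that started 19 to 34 bp upstream of the edge, with a median of 25 bp. BIRC5 was the exception, with its nearest edge 270 bp short of the main end. The reference sequences upstream of the strongest terminal peak of each gene are shown because they carry these signals. They are read 5′ to 3′ on the strand of the gene from GRCh38, the signal is in capitals, and each window ends at the 3′ edge of the peak, or a few bases earlier so that a more distant signal is included.
MCL1: aaaaaaAATAAAtcttttattcaaatacag
BCL2: AATAAAgtacagtgtgagatactggttgtg
BCL2L2: aataAATAAAgcccagaagtttaatgagaa
BCL2L1: cagtAATAAActgtgtttactcagtgaaca
BAX: ggtAATAAAcctccttcgggacacacttcg
BAK1: ttggaAATAAActgtgcaatcccctcaccc
BNIP3: aaaaAATAAAtctttgccaaatccttcaga
BCL2L11: attttataaaAATAAAactttcaactagtt
XIAP: AATAAAatactattctttaaaattatatca
BIRC5: ATTAAAactaagcacaaagccattctaagt

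The strongest terminal pileups of the 10 genes ran from 11 to 52, with a median of 26, and those of the 13761 genes from 9 at the 10th percentile over a median of 23 to 44 at the 90th. In descending order they were MCL1 (52), BIRC5 (49), BNIP3 (34), BCL2 (31), BCL2L2 (28), XIAP (24), BAX (19), BCL2L11 (15), BCL2L1 (13) and BAK1 (11). The list gives 1 pooled value for each gene, so it cannot be said which neighbours in this order differ beyond their spread. Among the anti-apoptotic genes the range was from 13 for BCL2L1 to 52 for MCL1, and the effectors BAX and BAK1 both stood below the median of all genes.

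MCL1, a short-lived anti-apoptotic protein, had the highest single terminal peak, while summed over all terminal peaks BIRC5 was higher (107 against 81). The BIRC5 sum includes peaks of 18 and 24 whose summits lay in introns, with 9 and 7 of 10 A downstream. The MCL1 sum includes a peak of 7 that also lay in ADAMTSL4 of the opposite strand. Exonic 3′ UTR peaks are in neither sum, so this order holds for the terminal class only. The MCL1 gene (ENSG00000143384, chr1:150560895-150579738, minus strand) held 6 peaks, and 3 of them divided its 3′ UTR of 2820 bp. The peak at the main end (chr1:150574553-150574691) had a pileup of 52, higher than that of 95.2% of the 13761 genes, a fold enrichment of 14.6 and a −log10 q of 43.9. A second peak, 1394 bp before the main end and at no annotated end, reached a pileup of 36 and a −log10 q of 26.6. Another, 2638 bp before the main end and close to the end of a shorter annotated transcript, had a pileup of 22. All 3 had an AATAAA upstream, at 23, 40 and 27 bp respectively, and at most 3 A among the 10 bases downstream. The remaining 3 peaks lay 3774, 8735 and 13723 bp past the main end, in or at the end of longer non-canonical transcripts of MCL1, with pileups of 21, 15 and 7. The first 2 were intronic with 9 and 10 of 10 A downstream. The last had its summit also in ADAMTSL4-AS1, a gene of the same strand as MCL1. It lay where MCL1 transcripts meet the gene ADAMTSL4 of the opposite strand. Read on that strand, its edge was 3 bp before to 2 bp past annotated ends of ADAMTSL4, and the list does not say on which strand its reads lay.

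BCL2, the founding anti-apoptotic member (ENSG00000171791, chr18:63123346-63320128, minus strand), had its strongest peak at the main end (chr18:63123335-63123463), with a pileup of 31 and a −log10 q of 26.9. Its 3′ UTR of 5282 bp held 4 further peaks. The one 289 bp before the main end had a pileup of 20 and an AATAAA 22 bp upstream, whereas those 2364, 3449 and 3703 bp before it had pileups of 14, 16 and 15 and neither AATAAA nor ATTAAA at 10 to 40 bp. A second group of 4 peaks lay at the 5′ end of the gene, in the 3′ UTR of a short annotated transcript, which ends inside the second intron. Their pileups were 15, 17, 17 and 18. The peak with 18 was terminal, 11 bp short of the annotated end of this transcript, and 3 of the 4 had an AATAAA at 10 to 19 bp. Each of these 4 was lower than the peak at the main end, and their reads cover a region that is intronic in the canonical transcript.

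The other 2 anti-apoptotic genes had a single peak in their 3′ UTR. BCL2L2 (ENSG00000129473, chr14:23298790-23311751, plus strand) had a pileup of 28 exactly at its main end (chr14:23311580-23311751), with a −log10 q of 22.9, and the remainder of its 2789 bp 3′ UTR held no peak. This peak also lay inside BCL2L2-PABPN1, a read-through gene of the same strand that continues past this end. BCL2L1 (ENSG00000171552, chr20:31664452-31723989, minus strand) had a pileup of 13 at its main end (chr20:31664456-31664559), 2 bp past it and higher than that of only 17.4% of the 13761 genes. Its strongest intronic peak, in the second intron, had the same pileup of 13 with 9 of 10 A downstream. Its exonic peak, in the 5′ UTR of a transcript variant, had a pileup of 9, 8 of 10 A downstream and a summit that also lay in ABALON on the opposite strand.

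The effectors that permeabilise the mitochondrial outer membrane, BAX and BAK1, had 1 terminal peak each and few others. BAX (ENSG00000087088, chr19:48954815-48961798, plus strand) had a pileup of 19 at a peak 5 bp past its main end (chr19:48961551-48961803), and its other peak, in the fourth intron, had a pileup of 16 with 8 of 10 A downstream. BAK1 (ENSG00000030110, chr6:33572547-33580293, minus strand) held 1 peak (chr6:33572549-33572653), 3 bp past the main end, with a pileup of 11, higher than that of 12.4% of the 13761 genes, and its summit also lay in GGNBP1 of the opposite strand. The 3′ UTR of BAX in its canonical transcript is short (165 bp), while that of BAK1 is 1254 bp and held no peak ahead of its end.

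BCL2L11, which encodes the BH3-only protein BIM, was the 1 gene of the 10 with an exonic peak above all of its terminal peaks. The gene (ENSG00000153094, chr2:111119378-111168444, plus strand) had a pileup of 15 at its main end (chr2:111168340-111168445). An exonic peak 1351 bp before the main end, inside the 3′ UTR, had a pileup of 20 and none of the 12 hexamers within 100 bp. A terminal peak near the start of the same 3′ UTR, 3853 bp before the main end and 52 bp before the end of a shorter transcript, had a pileup of 10, also with no hexamer. A peak with a pileup of 5 marked the end of a short annotated transcript, with an AATAAA 20 bp upstream. The strongest of its 6 intronic peaks had a pileup of 13. All 10 peaks of BCL2L11 lay within MIR4435-2HG, a long non-coding gene of the opposite strand.

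BNIP3, a mitochondrial BH3-like protein of mitophagy and the hypoxia response (ENSG00000176171, chr10:131967684-131981967, minus strand), ended at 2 sites of similar height. The pileup was 34 at its main end (chr10:131967684-131967824), with a −log10 q of 24.1, and 26 at a peak 399 bp earlier, whose edge was 145 bp past the end of a shorter transcript. AATAAA stood 25 and 20 bp upstream. The strongest of 3 intronic peaks, in the third intron, had a pileup of 17 with 5 of 10 A downstream and no hexamer. Its class follows the summit, and whether its 3′ edge lies in an exon was not checked. GENCODE 44 lists many processed pseudogenes of BNIP3 and a few of BAK1 and XIAP, and whether reads were shared with them was not tested.

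XIAP, the inhibitor that binds caspases directly (ENSG00000101966, chrX:123859712-123913972, plus strand), has the longest 3′ UTR of the 10 genes (6794 bp), and 5 peaks lay in it. The peak 6 bp past the main end (chrX:123913851-123913978) and an exonic peak 1631 bp before it shared the highest pileup, 24. They differed in their sequence: the first had an AATAAA 30 bp upstream and 2 of 10 A downstream, the second only an AATACA 81 bp upstream and 7 of 10 A downstream. Peaks 494 and 3098 bp before the main end, with pileups of 14 and 17, had 8 and 9 of 10 A downstream and no hexamer. The first peak of the 3′ UTR, 6329 bp before the main end, had an AATAAA 30 bp upstream, 2 of 10 A downstream and a pileup of 9. A peak in the coding sequence had a pileup of 14, and the strongest of 4 intronic peaks, in the first intron, one of 10.

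BIRC5 encodes survivin, which acts in chromosome segregation and as an inhibitor of apoptosis, and is abundant in dividing cells. The gene (ENSG00000089685, chr17:78214186-78225636, plus strand) differed from the other 9 in having no peak at its main end. It also had none classed as intronic. Its 9 peaks included 5 along the 3′ UTR of 2084 bp, at 1942, 1405, 924, 523 and 270 bp before the main end, with pileups of 16, 49, 40, 18 and 27. The highest (chr17:78224068-78224230, −log10 q of 38.7) was counted as terminal, by its summit, for the end of a shorter annotated transcript. Its edge was 374 bp past that end, and the peak had the variant ATTAAA 29 bp upstream. The one with 40 (−log10 q of 28.3) and the one with 27 had an AATAAA 34 and 44 bp upstream, while the peaks with 16 and 18 had no hexamer. Further upstream, a peak with a pileup of 24 lay 73 bp before the end of a short transcript, with 7 of 10 A downstream. The 3 peaks nearest to the 5′ end had pileups of 18, 20 and 16, the first 2 with 9 of 10 A downstream and the third in the coding sequence.

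Next to the terminal peaks, the 5 strongest other peaks of the 10 genes are shown in the same way, to set the sequence beside that of the strongest ends. The windows of the BIRC5 peak with a pileup of 27 and the MCL1 peak end 15 and 11 bases before the edge, so that their AATAAA, 44 and 40 bp upstream, is included. The BIRC5 peaks are those 924 and 270 bp before its main end, the MCL1 peak is the one 1394 bp before its main end, the BNIP3 peak the one 399 bp before, and the BCL2 peak (chr18:63218438-63218564) lies in the second intron. Of these, 3 are exonic, the BNIP3 peak is terminal and the BCL2 peak is intronic.
BIRC5 pileup 40: AATAAAaagcctgtcatttcaaacactgct
MCL1 pileup 36: AATAAAgcaaatacttactgttttgtttct
BIRC5 pileup 27: AATAAAgccgtaggcccttgtctaagtgca
BNIP3 pileup 26: tttgtccaaAATAAAtattgtggccttata
BCL2 pileup 25: gaacATTAAAttgaaagaaaaagggaagga

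**Figure D1:**
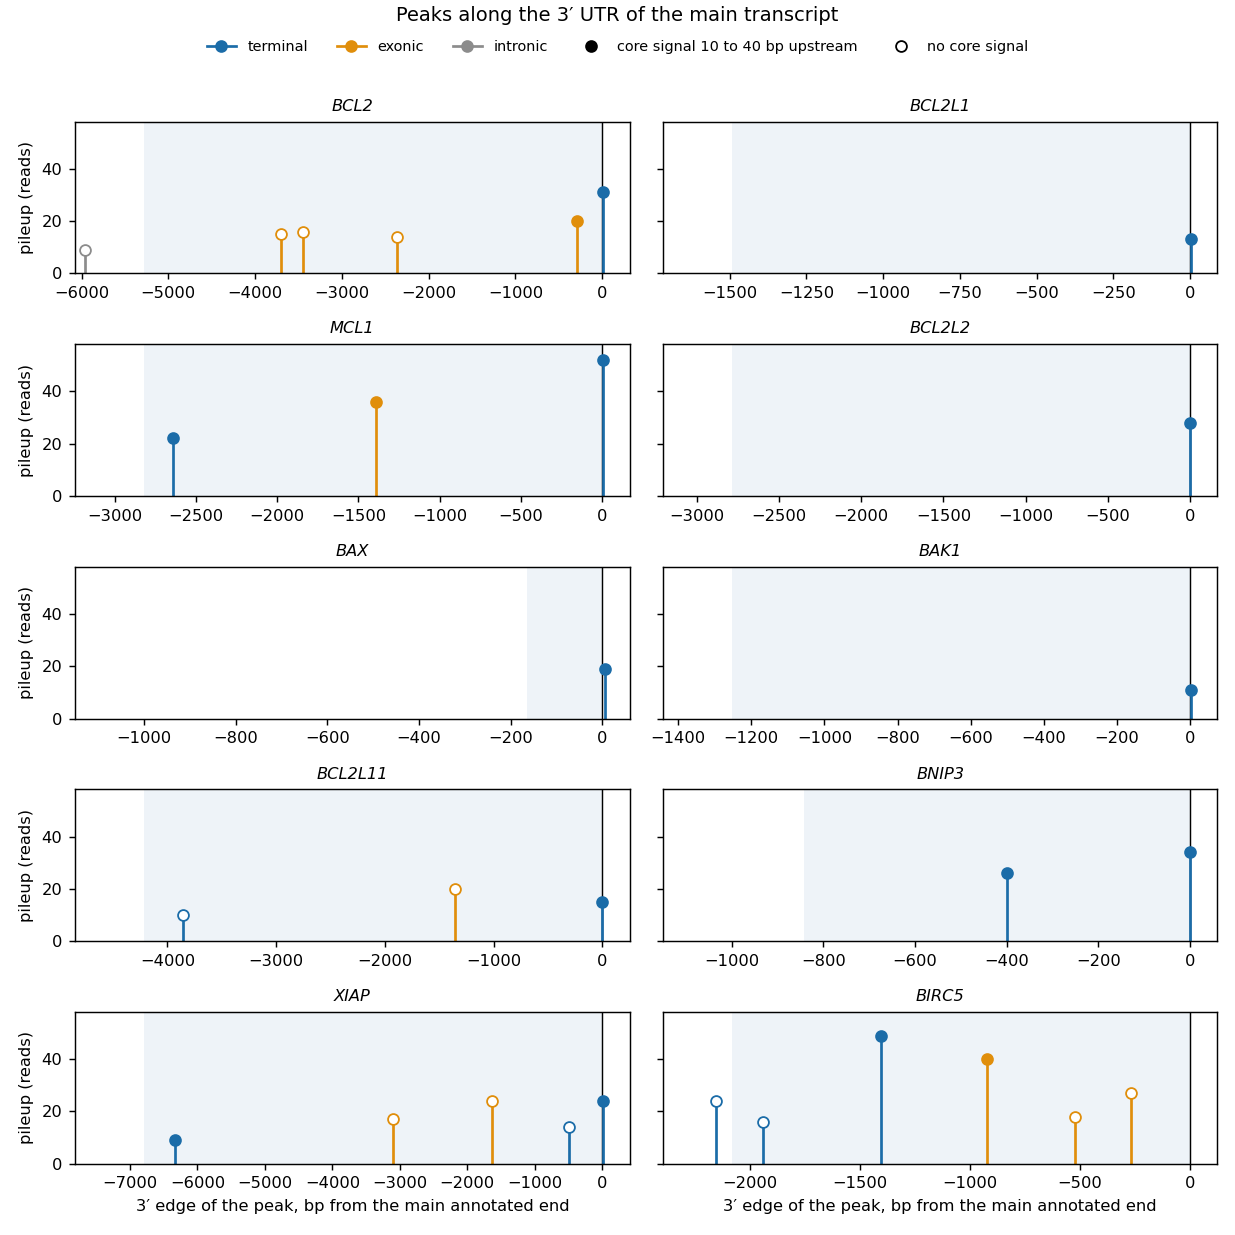
Peaks along the 3′ UTR of the canonical transcript of each gene (shaded, ending at the line at 0), with the distance of the 3′ edge from the main annotated end in bp on the horizontal axis and the pileup at the summit in reads on the vertical axis. Colours give the class, and filled points have AATAAA or ATTAAA starting 10 to 40 bp upstream of the edge: 9 genes have a filled point at 0, and BIRC5 has its highest point 1405 bp before the end.

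Of the 117 peaks, 21 were terminal (17.9%, interval 12.05% to 25.9%), 18 exonic (15.4%, 9.96% to 23.01%) and 78 intronic (66.7%, 57.7% to 74.6%). Over all protein-coding genes, 162226 pairs of a peak and a gene divided into 18.8% terminal, 10.3% exonic and 70.9% intronic, so that the 3 intervals of the 10 genes each reached from below to above the share of all genes. Of the terminal peaks, 9 lay at the main ends and 12 at other annotated ends. A −log10 q of at least 20 was reached by 9 peaks (7.69%, 4.10% to 14.0%), near the 8.26% of all genes' peaks. Of these 9, 5 were terminal (MCL1, BIRC5, BCL2, BNIP3 and BCL2L2), 2 exonic (MCL1 and BIRC5) and 2 intronic (both in BCL2). The pileup of terminal peaks ranged from 5 to 52 with a median of 18 (17 for all genes), that of exonic peaks from 9 to 40 with a median of 17 (13 for all genes), and that of intronic peaks from 3 to 25 with a median of 9 (8 for all genes). No gene of the 10 had an intronic peak above its strongest terminal peak.

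**Figure D2:**
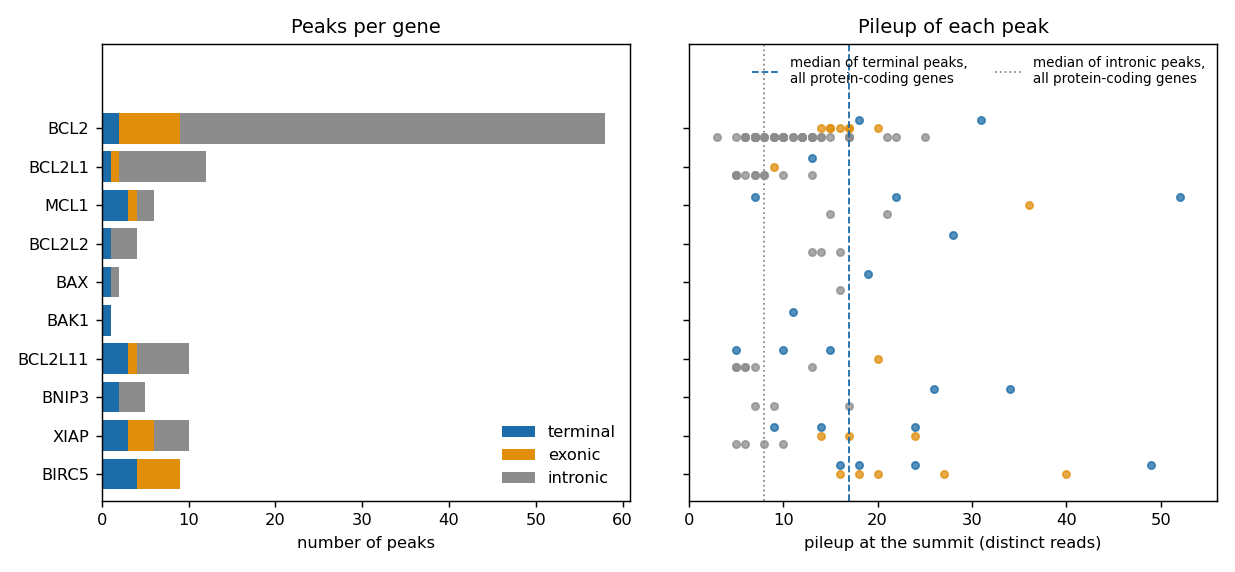
Number of peaks of each class in each gene (left) and the pileup at the summit of every one of these peaks in distinct reads (right), with the medians of terminal (17) and intronic (8) peaks over all protein-coding genes as lines. BCL2 holds 49 of the 78 intronic peaks, and the highest terminal peaks are those of MCL1 (52) and BIRC5 (49).

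The intronic peaks were spread unevenly over the genes. An intronic peak was found in 8 of the 10 genes, against 75.4% of the 13761 genes with a terminal peak, and BAK1 and BIRC5 had none, although the 2 BIRC5 peaks with pileups of 18 and 24 that were counted as terminal for short transcripts had their summits in introns. BCL2 held 49, BCL2L1 10, BCL2L11 6, XIAP 4, BCL2L2 and BNIP3 3 each, MCL1 2 and BAX 1. In the 6 genes with at least 10 kb of intron, the density was from 8.94 (XIAP) to 29.3 (BNIP3) intronic peaks per 100 kb of intron. Its median over the 6 genes was 17.0, where 10052 genes had a median of 12.4 and a 90th percentile of 21.9. The value of MCL1, 15.8, rests on 2 peaks, both past its main end in longer non-canonical transcripts. The value of BNIP3 rests on 3 peaks. That of BCL2, 26.6 per 100 kb, was higher than in 96.4% of the 10052 genes. The 802 genes of this set whose length differed from that of BCL2 (197 kb) by a ratio of at most 5 to 4 had a median of 22 intronic peaks and a maximum of 75. BCL2L1 had 10 where 1681 genes of similar length had a median of 7, BCL2L11 had 6 against a median of 5 in 1802 genes, and XIAP had 4 against a median of 6 in 1771 genes.

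All 49 intronic peaks of BCL2 lay in its second intron, which separates the exon that holds most of the coding sequence from the last exon and spans chr18:63128760-63318081, 189 kb of the 197 kb of the gene. Counting also the 4 peaks in the 3′ UTR of the short transcript, this intron held 53 peaks, which were 0.23 to 10.9 kb apart with a median of 3.23 kb. The intronic peaks were found along its whole length, with 14, 18 and 17 in 3 successive parts of equal length from the 5′ end, and the median pileup in these parts was 12.5, 7.5 and 8. Their pileups ranged from 3 to 25 with a median of 10, and none of the 49 reached the 31 of the main end. Only 3 had a pileup of 20 or more. These were the peaks 95092, 138446 and 183509 bp before the main end, with pileups of 25, 22 and 21. The first 2 were those with a −log10 q of at least 20 (24.2 and 21.4). They had an ATTAAA 25 bp upstream and an AATAAA 15 bp upstream, but also 7 and 8 of 10 A downstream, and the third had no hexamer and 10 of 10 A.

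**Figure D3:**
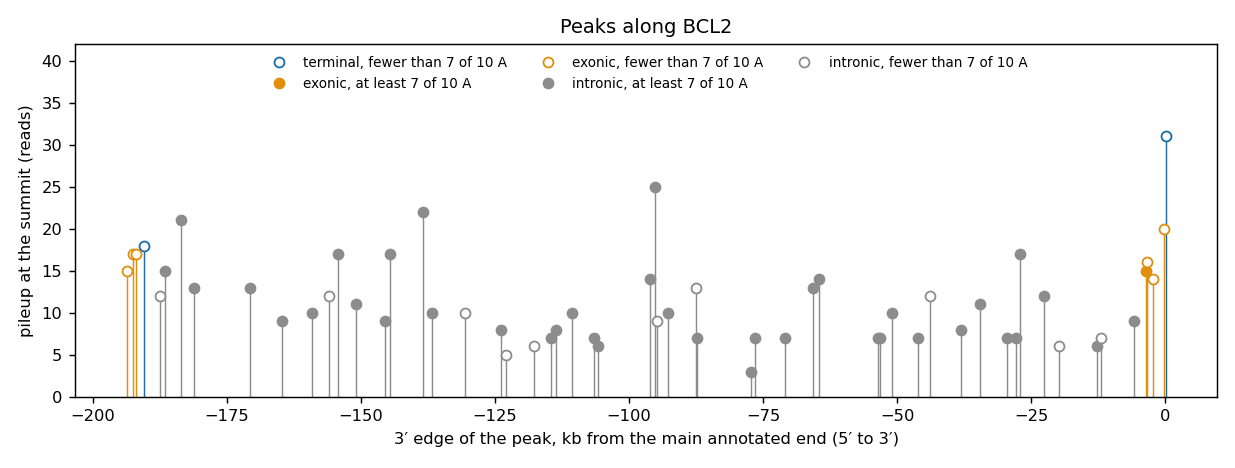
Peaks along BCL2, with the distance of the 3′ edge from the main annotated end in kb on the horizontal axis, 5′ to 3′, and the pileup at the summit in reads on the vertical axis. Filled points have at least 7 A among the 10 bases downstream: 39 of the 49 intronic points (grey) are filled, and the highest point, 31 reads, is at the main end.

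The sequence around the 3′ edge separated the classes in the same direction as in all genes. The hexamers searched, on the strand of the gene, were AATAAA and ATTAAA and AGTAAA and TATAAA and AATATA and AATACA and CATAAA and GATAAA and AATGAA and ACTAAA and AAGAAA and AATAGA. At least 1 of these 12 occurred within 100 bp upstream of the edge for 63 of the 117 peaks (53.8%, interval 44.8% to 62.6%), against 56.3% over all protein-coding genes. The share was 17 of 21 for terminal peaks (81.0%, 60.0% to 92.3%, against 77.7%), 9 of 18 for exonic peaks (50%, 29.03% to 71.0%, against 64.2%) and 37 of 78 for intronic peaks (47.4%, 36.7% to 58.4%, against 49.5%). All 9 peaks with a −log10 q of at least 20 had one (interval 70.1% to 100%), beside 82.5% of such peaks in all genes. With the narrower criterion of AATAAA or ATTAAA starting 10 to 40 bp upstream, the shares were 16 of 21 for terminal peaks (76.2%, 54.9% to 89.4%), 5 of 18 for exonic peaks (27.8%, 12.5% to 50.9%) and 11 of 78 for intronic peaks (14.1%, 8.06% to 23.5%), beside 48.4%, 24.1% and 13.8% in all genes. By this criterion the interval of the terminal peaks lay above the share of all genes, and those of the other classes included it. No test was made, since peaks of a gene share its sequence and the genes were picked as a family.

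A-rich sequence was more frequent after intronic than after terminal peaks, and its share depended on the limit and on the position from which the bases were counted. At least 7 of the 10 bases downstream of the edge were A for 56 of 78 intronic peaks (71.8%, interval 61.0% to 80.6%), against 66.8% of the intronic peaks of all genes, and all 10 bases were A for 10 of them. At least 8 A were found for 38 of 78 (48.7%, 37.9% to 59.6%, against 51.3%). With the 10 bases counted from the summit in place of the 3′ edge, the share with at least 7 A was 5.13%. The summit lies inside the peak, upstream of the edge, so these bases are not those after the approximate cleavage position. Counted from the edge with at least 7 A, the shares were 5 of 18 for exonic peaks (27.8%, 12.5% to 50.9%, against 31.5%) and 3 of 21 for terminal peaks (14.3%, 4.98% to 34.6%, against 20%). BCL2 had 39 of 49 (79.6%, 66.4% to 88.5%), with 12, 13 and 14 in the 3 successive parts of its intron, and the other 9 genes together had 17 of 29 (58.6%, 40.7% to 74.5%). The stretches are shown for BCL2 with the 20 bases before the edge in lower case and the 10 bases after it in capitals, first for the main end and then for the 3 strongest intronic peaks, of which the last, with a pileup of 21, was chosen for display after its values were seen.
BCL2 main end, pileup 31: gagatactggttgtgcctggAATTGTTTAT
BCL2 intron, pileup 25: ttgaaagaaaaagggaaggaACGAAAGAAA
BCL2 intron, pileup 22: tcaaaataaaaaaaaaaaaaGAAAAAATAA
BCL2 intron, pileup 21: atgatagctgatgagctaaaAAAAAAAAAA

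An intronic peak with AATAAA or ATTAAA at 10 to 40 bp and fewer than 7 A downstream was found in 2 of 78 cases (2.56%, interval 0.706% to 8.88%), compared with 8.12% of the intronic peaks of all genes. They lay 117756 bp before the main end of BCL2 and in the third intron of BCL2L11, both with a pileup of 6. The letters GTCTC, which are typical of the end of Alu repeats ahead of their A-rich tail, occurred on the strand of the gene within 30 bp upstream of the edge in 9 of 78 intronic peaks (11.5%, 6.19% to 20.5%, against 15.6% in all genes), including the BCL2 peak with a pileup of 22. This motif was added after the sequences had been seen. The study removed, as false positives, peaks with no hexamer and a stretch of A downstream. Read on the strand of the gene, peaks of this kind are still in the deposited list. A stretch of 25 bases with at most 3 other than A within 50 bp downstream, together with the absence of a hexamer, applied to 3 of the 117 peaks (2.56%, 0.876% to 7.27%), against 5.28% of the peaks of all genes. These were 2 peaks in the BCL2 intron with pileups of 11 and 7 and one in BCL2L11 with 5. The part of internal priming in the intronic peaks was not tested.

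**Figure D4:**
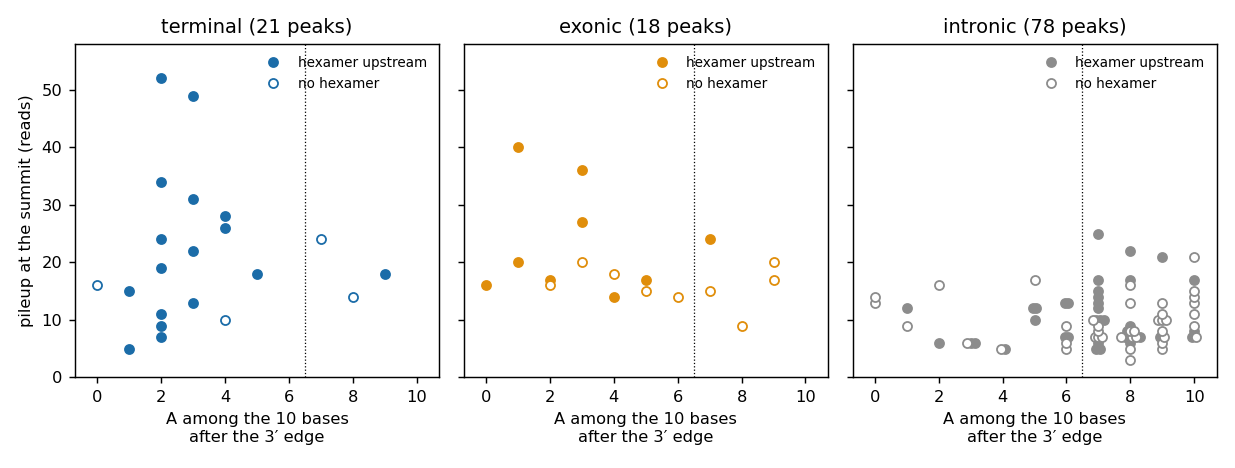
Pileup at the summit in reads against the number of A among the 10 bases after the 3′ edge, for the 21 terminal, 18 exonic and 78 intronic peaks. Filled points have 1 of the 12 hexamers within 100 bp upstream, the dotted line marks the limit of 7 A, and points with the same values are drawn side by side: 56 intronic points lie to its right and 18 of the 21 terminal points to its left.

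Because the list has no strand, peaks in overlapping genes could not be assigned. Of the 117 peaks, 22 also lay in another annotated gene, in 20 cases one of the opposite strand. Of these 20, 9 had at least 7 of 10 A downstream on the strand of the member gene and 3 on the opposite strand. The latter were the peak of BCL2L11 with a pileup of 13 and the 2 intronic peaks of BCL2L2 that lie in PPP1R3E, with pileups of 16 and 14. Between 600 and 2000 bp past the 3′ ends of the genes, 3 more peaks were found. They lay 1203 bp past BNIP3 (pileup 15), 1253 bp past BCL2L2 (pileup 14, within BCL2L2-PABPN1) and 1974 bp past BCL2L11 (pileup 9, within MIR4435-2HG).

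The other genes of the pathway were described from a list, 34 of which are reported. A terminal peak was found in 28 of the 34 (82.4%, beside 68.7% of all protein-coding genes), and the median of their strongest terminal pileups was 24.5, beside 26 in the 10 genes. In the BCL2 family, listed with the partner genes BECN1 (autophagy) and VDAC2 (a mitochondrial channel), 14 of 17 had one, with a median of 27.5, and without these partners, which reached 35 and 33, it was 12 of 15 with a median of 24.5. The highest values were 43 for BID, the BH3-only protein that caspase-8 cleaves, 42 for BCL2L13, a mitochondrial receptor of mitophagy, and 37 for PMAIP1, which encodes the BH3-only protein NOXA that binds MCL1. BCL2A1 and BCL2L10, both of the anti-apoptotic branch, had no peak of any class, and BIK had an exonic peak only. Among the inhibitors of apoptosis and their antagonists 6 of 7 had a terminal peak, with a median of 25.5. DIABLO and HTRA2, the mitochondrial proteins that relieve inhibition by XIAP, reached 61 and 59, above the peaks of XIAP and BIRC5. The ubiquitin ligase gene BIRC6 had 28, together with 54 intronic peaks in a gene of 263 kb, and BIRC3 had no peak. In the caspase pathway 8 of 10 had a terminal peak, with a median of 19. CYCS, the gene of cytochrome c, reached 65, and has many processed pseudogenes, for which read sharing was not tested either. FADD, the adaptor of death receptors, had 36, and CASP6, an executioner caspase, had 30. CASP10 had no peak, and CASP2 had no terminal peak by its summits, although the 3′ edge of one of its peaks lay within 25 bp of its main end. Of the genes with a terminal peak that are named here, BCL2L13, HTRA2, CYCS and CASP6 had no 3′ edge within 25 bp of their main end. An absent peak says only that the pooled reads did not pass the threshold of the peak caller.

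**Figure D5:**
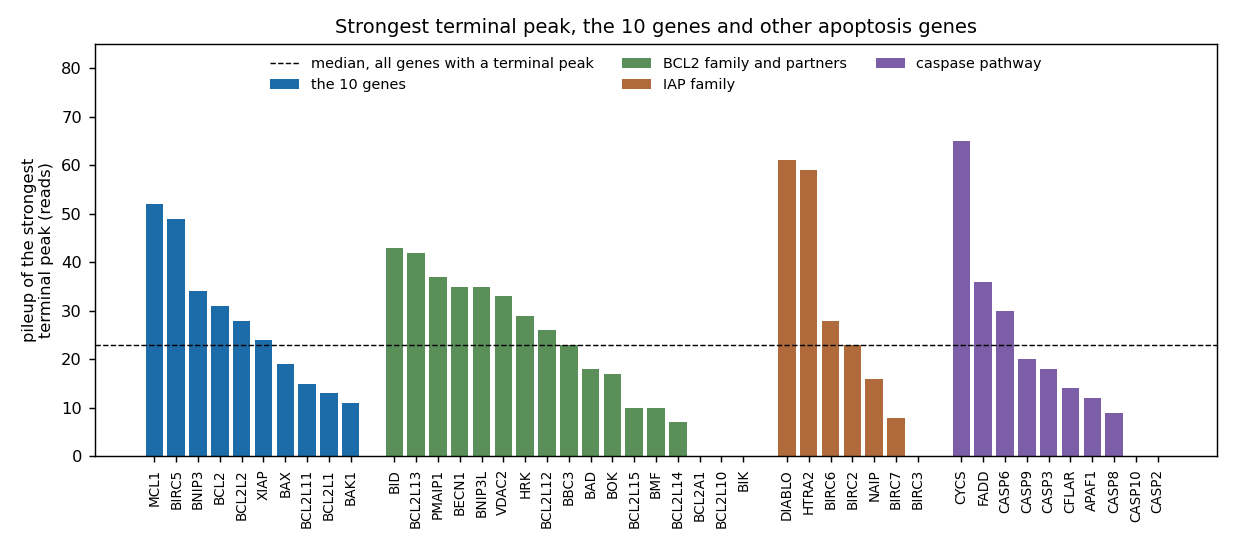
Pileup of the strongest terminal peak in reads for the 10 genes and for 34 other apoptosis genes in 3 groups, each sorted by value, with the median of all 13761 protein-coding genes that have a terminal peak (23) as a dashed line. Genes without a bar have no terminal peak, and the highest bars are CYCS (65), DIABLO (61) and HTRA2 (59).

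The label of the cells was checked against marker genes. All 8 markers of adrenergic neuroblastoma reported here had a terminal peak, with pileups of 114 for PHOX2A, 73 for MYCN, 60 for GATA3, 52 for ELAVL4, 48 for CHGA, 46 for HAND2, 21 for TH and 17 for DBH. Of the markers of other cell types, PTPRC and CD3E of leukocytes and PECAM1 of endothelium had no peak, and COL1A1 of fibroblasts and EPCAM of epithelium had pileups of 14 and 13.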

How the data were processed

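Single-end reads were trimmed, mapped to GRCh38 with STAR 2.5.1b, downsampled, merged over all 10 libraries and searched for peaks with MACS2 2.1.1 by the authors, with reads extended to 100 bp (versions from the submitters' processing notes). The fold deposited by the authors is a ratio of pileup to local background, each plus 1. The deposited p-value and q-value are −log10 values of a Poisson test of that pileup. Groups came from the sample labels, but the pooled list allows no comparison between them, no depth per library and no p-value for any group.

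Pileups were recovered as whole numbers (largest error in −log10 p 0.000168 over the list and 1.41e-05 for the 117 peaks, next best number off by at least 0.000915 for these). Summits were annotated with GENCODE 44, all transcripts, and sequence was read from GRCh38. Each peak was counted for every gene that it lies in, so 148735 peaks of protein-coding genes gave 162226 pairs. Recovery, motif search and classes were tested on simulated data. The members and lists were chosen with earlier results of these data known. For each member the text names the strongest terminal, exonic and intronic peak and any with −log10 q of at least 20, and for the other genes the 3 highest of each group and those without a peak. BIK, CASP2, BECN1 and VDAC2 were named in addition, after their values had been seen. From the lists, 1 apoptosis gene and 1 neuroblastoma marker are not reported here, for reasons unrelated to their values, and the counts leave them out. Alternatives changed the q-value limit, windows, transcripts, motifs and overlaps. Python 3.11.15, numpy 2.4.6, scipy 1.17.1, pandas 2.3.3, pysam 0.24.0, samtools 1.23.1 and matplotlib 3.10.9 were used.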

Additional observations from a re-analysis of the deposited data

How the results depend on the processing

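No paired analysis was possible because peaks were called on merged reads, and for the same reason no replicate could be left out. Of 59 alternatives of the main results, 41 gave values within 1.5 times a count or within the interval of a share, and 18 did not. With −log10 q of at least 5, 51 of the 78 intronic peaks remained. With at least 20, 9 of the 117 peaks remained (5 terminal, 2 exonic and 2 intronic), the share with a hexamer was 100%, and 16 of the 28 other apoptosis genes kept a terminal peak. With the main transcript only there were 9 terminal peaks. Without BCL2, an alternative chosen after seeing the data, there were 59 peaks, 11 exonic and 29 intronic. The hexamer share of 53.8% was 35.9% at the summit and 34.2% with AATAAA and ATTAAA only. The A-rich share of 71.8% of intronic peaks was 80.8% with at least 6 A, 48.7% with at least 8, 5.13% at the summit, 3.85% by the 25-base stretch and 58.6% without BCL2. Of 30 strongest terminal pileups, 22 were kept and 8 moved: BIRC5 had no terminal peak with the main transcript only or a window of 100 bp on each side, and sums over all terminal peaks were 49 for BCL2, 81 for MCL1, 30 for BCL2L11, 60 for BNIP3, 47 for XIAP and 107 for BIRC5.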
